A study of Homo sapiens with 9 samples.

Results

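The 9 genes HPRT1, APRT, UPRT, NAMPT, NAPRT, QPRT, ADK, PNP and DCK were chosen by name from the 58735 genes listed. They belong to base and nucleoside salvage and to NAD synthesis, with UPRT included as a relative of such enzymes. Their mRNA was read in 9 RNA-seq libraries of HEK293T, a human embryonic kidney line, and all 9 were abundant enough to be tested. Every library, the controls included, comes from cells labelled HEK293T-PRPS1-HA-dTAG-PRPSAP1-V5-BromoTag, in which PRPS1 carries an HA epitope and the dTAG degron and PRPSAP1 a V5 epitope and the BromoTag degron (the genotype label names no V5). There were 3 libraries with DMSO, 3 with dTAG47 at 500 nM to deplete PRPS1 and 3 with AGB1 at 500 nM to deplete PRPSAP1, each compound for 24 h. The labels do not say whether the line is a single clone or whether libraries came from separate cultures, so p-values measure only the spread between these libraries. Cells without the tags were not analysed here.

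PRPS1 makes phosphoribosyl pyrophosphate (PRPP), the activated sugar phosphate that purine, pyrimidine and pyridine nucleotide synthesis share, and PRPSAP1 is a PRPP synthetase-associated protein. PRPS2, another PRPP synthetase, carries no tag in the label, and the PRPP left after either compound was not measured here. Phosphoribosyltransferases join PRPP to a free base in 1 step: HPRT1 to hypoxanthine or guanine, APRT to adenine, NAMPT to nicotinamide, NAPRT to nicotinic acid and QPRT to quinolinic acid from tryptophan breakdown. UPRT is the human relative of the uracil phosphoribosyltransferases. ADK, PNP and DCK use no PRPP: PNP splits purine nucleosides into base and ribose phosphate and so feeds HPRT1, while ADK phosphorylates adenosine and DCK phosphorylates deoxycytidine and other deoxynucleosides.

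The degrons act on protein, so the mRNA of their targets does not check the labels. PRPS1 mRNA was at 99.1, 105 and 106 CPM (the count scaled to the library's TMM-adjusted total) in the DMSO libraries, 113, 110 and 106 with dTAG47 and 109, 109 and 110 with AGB1. PRPSAP1 mRNA was at 36.6, 23.5 and 28.3 CPM in DMSO, 32.1, 29.8 and 26.8 with dTAG47 and 27.2, 29.9 and 30.2 with AGB1. Total counts per library ranged from 27964128 to 44803380, at which 3 counts correspond to 0.067 to 0.107 CPM. Of 10 epithelial and HEK293 markers 9 were tested, among them KRT18 at 41.8 to 60.1 CPM, while EPCAM stayed at 1.11 to 3.21 CPM and KRT19 at 0.0971 CPM or less. The summed markers of leukocytes, endothelial cells, hepatocytes and erythroid cells each reached at most 6.05 CPM in a library, and the fibroblast list reached 32.4 CPM, nearly all of it COL1A1.

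On GRCh38, in the gene models of GENCODE release 29, HPRT1 lies at chrX:134460153-134520513 and UPRT at chrX:75274085-75304600, both on the plus strand of the X chromosome. APRT lies at chr16:88809339-88811944 on the minus strand and spans only 2606 bases, while QPRT is on the plus strand of the same chromosome at chr16:29679008-29698699. NAMPT lies at chr7:106248285-106286326 on the minus strand. The nucleoside enzymes are on plus strands, with PNP at chr14:20468954-20477094, DCK at chr4:70992538-71030914 and ADK at chr10:74151185-74709303, the longest span of the 9 at 558119 bases. The counts are per gene, so isoforms were not read apart.

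Upstream sequences are given for HPRT1 and APRT, which had the highest mRNA levels per exonic length of the 9, and for UPRT, which lay far below them. They are RefSeq sequences on GRCh38.p14, at most 250 bases, ending before the annotated gene start. Capitals mark the GC box GGGCGG, read on both strands and so also as CCGCCC, a motif bound by SP1 and its relatives.
HPRT1, chrX:134459915-134460152, plus strand: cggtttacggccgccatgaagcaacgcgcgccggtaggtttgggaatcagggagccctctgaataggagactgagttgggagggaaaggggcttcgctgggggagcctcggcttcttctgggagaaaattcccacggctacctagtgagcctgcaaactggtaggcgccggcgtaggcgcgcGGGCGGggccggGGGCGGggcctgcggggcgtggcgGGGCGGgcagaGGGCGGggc
APRT, chr16:88811945-88812178, minus strand: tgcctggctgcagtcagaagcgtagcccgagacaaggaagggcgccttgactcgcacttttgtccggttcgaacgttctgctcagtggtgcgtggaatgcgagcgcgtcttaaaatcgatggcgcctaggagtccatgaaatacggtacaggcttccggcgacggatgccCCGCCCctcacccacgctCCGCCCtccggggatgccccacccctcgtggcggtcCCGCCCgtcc
UPRT, chrX:75273809-75274058, plus strand: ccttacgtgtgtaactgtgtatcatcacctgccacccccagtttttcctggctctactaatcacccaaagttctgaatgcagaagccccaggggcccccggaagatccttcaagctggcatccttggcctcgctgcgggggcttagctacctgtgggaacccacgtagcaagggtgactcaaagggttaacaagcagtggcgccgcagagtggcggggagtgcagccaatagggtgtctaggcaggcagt
The HPRT1 window holds 4 GC boxes close to the gene start and 24 CpG dinucleotides, the APRT window 3 GC boxes and 25 CpG, and the UPRT window no GC box and 8 CpG. Over the 250 bases upstream of each RefSeq start, 8 of the 9 genes matched the promoter table, and a GC box occurred in 6 of these 8 (HPRT1, APRT, NAMPT, ADK, PNP and DCK) against 42.3% of all 27305 promoters. Those promoters include genes not expressed here and had a median of 58% GC, while the 8 windows held 57.6% to 78%. NAMPT held 3 boxes and ADK 4, at DMSO levels per kb (12.1 and 12.8 CPM) nearer to UPRT (8.61) than to APRT (102). A relation of boxes to level was not tested. The E-box CACGTG occurred in DCK alone of the 8, against 6.49% of all promoters. The antioxidant response motif TGANNNNGC occurred in 5 of the 8 against 35.4%, the ATF4 motif TGATGNAA in none against 3.19%, and the TATA box TATAAA in none against 11.1%. Matches of different motifs shared bases at 1 place, CACGTG with TGANNNNGC in DCK, and a match of letters does not show a bound site.

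No salvage or NAD enzyme mRNA passed the threshold after either compound. In edgeR's quasi-likelihood test, with p-values adjusted by Benjamini-Hochberg over 18319 tested genes and a threshold of 0.05, 0 of the 9 were called for dTAG47 against DMSO, 0 for AGB1 against DMSO and 0 for dTAG47 against AGB1. Over all tested genes 0.06% were called in the first comparison (6 higher, 5 lower), 0.104% in the second (10 higher, 9 lower) and 0% in the third, so that 0 of 9 is near the background share in each. DESeq2 called 0 of the 9 in each comparison as well. At an unadjusted p under 0.05, 1 of the 9 passed for dTAG47 (NAPRT) against 7.28% of all tested genes, 2 for AGB1 (HPRT1 and APRT) against 7.76%, and 0 between the compounds against 4.02%. The 9 had a median log2 fold change of 0.021 with dTAG47 and 0.054 with AGB1, beside -0.00097 and -0.00092 over all tested genes. Both contrasts use the same DMSO libraries. Levels are relative to the library total, so a change of all mRNA per cell, or of the number of cells, could not be seen.

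**Figure D1:**
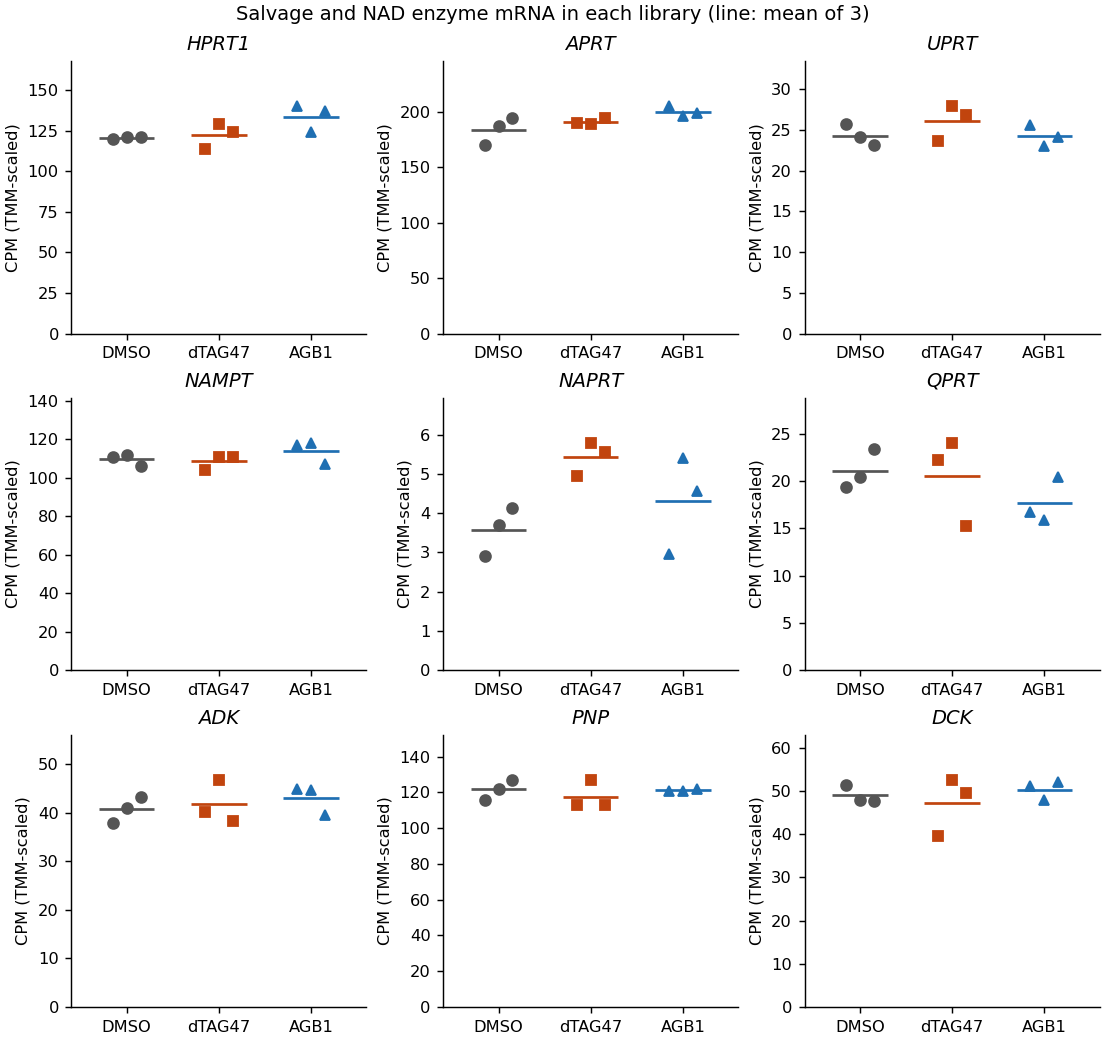
TMM-scaled CPM of each of the 9 mRNAs (y axis from 0, a separate scale for each gene) in each library, by treatment on the x axis; points are libraries and the line is the mean of 3. For NAPRT the dTAG47 libraries (4.95 to 5.78 CPM) lie above the DMSO libraries (2.91 to 4.12 CPM). For HPRT1 the AGB1 libraries (124 to 140 CPM) lie above DMSO (120 to 121 CPM). For APRT the AGB1 libraries (196 to 205 CPM) lie above both DMSO (170 to 195 CPM) and dTAG47 (189 to 195 CPM). The other groups overlap.

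HPRT1, the purine base enzyme that recycles hypoxanthine and guanine, gave 120, 121 and 121 CPM in DMSO, 114, 129 and 124 with dTAG47 and 140, 124 and 137 with AGB1. Its 3 AGB1 libraries were all above the DMSO libraries, while the dTAG47 libraries lay on both sides of them. The fitted log2 difference of AGB1 from DMSO was 0.15 ± 0.064 (SE), or 1.11-fold with a 95% interval of 1.01 to 1.21, and edgeR's adjusted p was 0.552. For dTAG47 it was 0.021 ± 0.064, with an interval of 0.926-fold to 1.11-fold. Between the compounds it was -0.13 ± 0.064 (dTAG47 minus AGB1) with an edgeR adjusted p of 0.999. HPRT1 shared no 75-base word with the transcripts of any other gene, and its pseudogenes HPRT1P1, HPRT1P2 and HPRT1P3 had 0 counts in every library.

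APRT, which returns adenine to AMP, gave 170, 187 and 195 CPM in DMSO, 190, 189 and 195 with dTAG47 and 205, 196 and 199 with AGB1. All 3 AGB1 values were above all DMSO and all dTAG47 values, and the lowest single value was DMSO library 1. The log2 difference of AGB1 from DMSO was 0.12 ± 0.057, or 1.09-fold, with an edgeR adjusted p of 0.628, and without DMSO library 1 it was 0.069. With dTAG47 the log2 difference was 0.058 ± 0.057, an interval of 0.96-fold to 1.13-fold; it was 0.0041 without DMSO library 1, 0.101 without DMSO library 3 and 0.013 with the GC trend removed. Groups that do not overlap were thus seen for 2 of the 9 genes with AGB1 (HPRT1 and APRT), 1 with dTAG47 (NAPRT) and 1 between the compounds (APRT), where 13.3%, 11.6% and 10.5% of all tested genes did the same.

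The other enzymes of purine salvage gave small differences. PNP was at 116, 122 and 127 CPM in DMSO, 113, 127 and 113 with dTAG47 and 121, 121 and 122 with AGB1. Its groups overlapped, and its intervals ran from 0.886-fold to 1.06-fold with dTAG47 and from 0.912-fold to 1.09-fold with AGB1. ADK was at 37.8, 41 and 43.2 CPM in DMSO, 40.1, 46.7 and 38.2 with dTAG47 and 44.8, 44.7 and 39.4 with AGB1. The ADK groups overlapped too, with log2 differences of 0.037 ± 0.091 for dTAG47 and 0.08 ± 0.091 for AGB1; leaving out a library gave 0.032 to 0.14 for the latter.

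DCK, the deoxynucleoside kinase, was at 51.5, 48 and 47.8 CPM in DMSO, 39.5, 52.6 and 49.5 with dTAG47 and 51.1, 47.9 and 52.1 with AGB1. A single library, dTAG47 library 1, was lower than the other 8, and the log2 difference of dTAG47 from DMSO was -0.056 ± 0.09 with it and 0.056 without it. That library was also the lowest of the 9 for HPRT1 and NAMPT. In it, genes of higher GC content read higher (Spearman's rho of 0.623 between GC and deviation from the mean over the 9 libraries, across 11435 genes that are not independent replicates), against -0.378 to 0.271 in the other 8. The longest transcripts of HPRT1, NAMPT and DCK hold 40.6%, 36.3% and 38.8% GC, and the genes lay -0.14, -0.085 and -0.3 log2 units from their means there. PNP, UPRT and ADK, with 44.9%, 42.7% and 41.7% GC, lay at -0.082, -0.075 and -0.055 there and were lowest in other libraries. Of the 3 genes of higher GC content, NAPRT (68%) and QPRT (57.4%) lay 0.2 and 0.19 log2 units above their means in that library, while APRT (63.6%) lay at -0.012. NAPRT lay higher in dTAG47 libraries 2 and 3 (0.42 and 0.36) and AGB1 library 2 (0.32). QPRT lay higher in DMSO library 3 (0.27, rho of 0.271) and dTAG47 library 2 (0.3, rho of -0.329). With the GC trend removed the DCK difference was -0.014. The part of GC content in the values of single libraries was not otherwise tested. Exons of MOB1B on the same strand cover 6.17% of the exonic bases of DCK. MOB1B was counted at 31.9 to 48.9 CPM, and its lowest count, 1123, was also in dTAG47 library 1. Whether reads in this overlap move the DCK values was not tested. UPRT was at 25.7, 24.1 and 23.2 CPM in DMSO, 23.6, 27.9 and 26.8 with dTAG47 and 25.6, 23.1 and 24.2 with AGB1. The UPRT groups overlapped, and the log2 differences were 0.1 ± 0.1 for dTAG47 and -0.0005 ± 0.1 for AGB1. The dTAG47 value was 0.049 without dTAG47 library 2, 0.068 without DMSO library 3 and 0.17 without dTAG47 library 1.

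**Figure D2:**
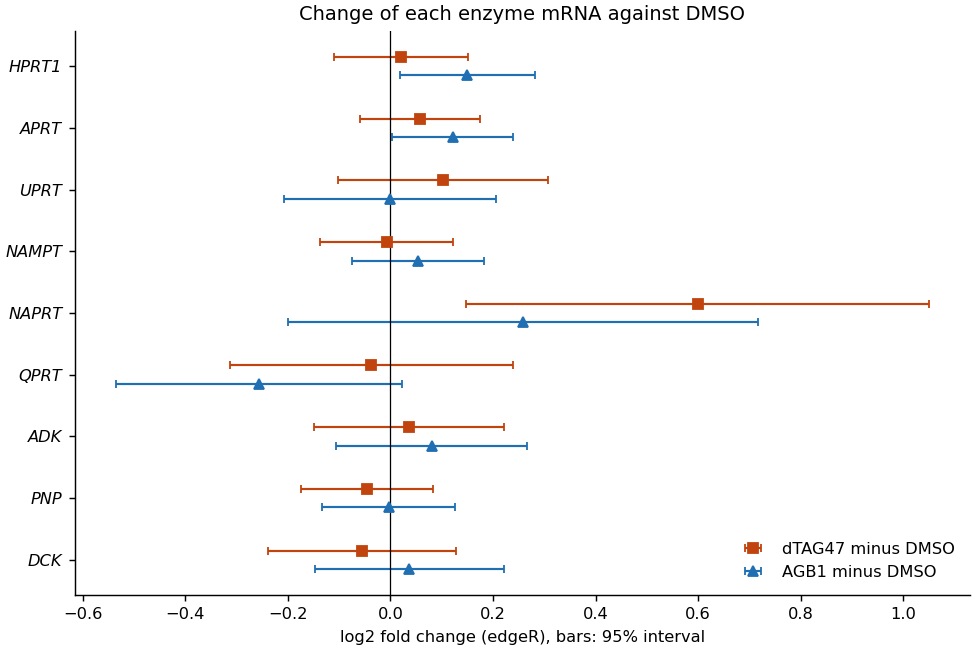
Fitted log2 fold change against DMSO (x axis) of each of the 9 mRNAs (y axis) for dTAG47 (squares) and AGB1 (triangles), with 95% intervals as bars. The intervals that leave out 0 are those of NAPRT with dTAG47 (0.15 to 1.05) and, narrowly, of HPRT1 (0.019 to 0.28) and APRT (0.0033 to 0.24) with AGB1, before any adjustment for 18319 tests.

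Among the 3 phosphoribosyltransferases that lead to NAD, NAMPT, the enzyme that recycles nicotinamide, had the highest level per kb and the smallest spread. It was at 111, 112 and 106 CPM in DMSO, 104, 111 and 111 with dTAG47 and 117, 118 and 107 with AGB1, with all groups overlapping. Its log2 differences were -0.0076 ± 0.063 for dTAG47 and 0.054 ± 0.063 for AGB1. The pseudogene NAMPTP1, which shares 28.2% of the 75-base words of NAMPT, was counted at 3.09 to 5.99 CPM. Summing the 2 changed no call.

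NAPRT, which starts NAD synthesis from nicotinic acid, showed the widest difference of the 9 and the lowest counts. It had 96, 119 and 154 counts in DMSO, 174, 259 and 173 with dTAG47 and 109, 151 and 141 with AGB1. These correspond to 2.91, 3.71 and 4.12 CPM in DMSO, 4.95, 5.78 and 5.55 with dTAG47 and 2.95, 5.4 and 4.56 with AGB1. All dTAG47 libraries were above all DMSO libraries, while AGB1 spanned both groups. The log2 difference of dTAG47 from DMSO was 0.6 ± 0.22, or 1.51-fold with an interval of 1.11 to 2.07, and edgeR's adjusted p was 0.531. It ranged from 0.47 to 0.71 over 19 alternative settings, none of which brought the adjusted p below 0.261. With AGB1 the log2 difference was 0.26 ± 0.22, ranging from 0.063 without AGB1 library 2 to 0.48 without AGB1 library 1, and dTAG47 minus AGB1 was 0.34 ± 0.22 with an edgeR adjusted p of 0.999, ranging from 0.12 without AGB1 library 1 to 0.54 without AGB1 library 2. The NAPRT transcript holds 68% GC, and with the GC trend removed the dTAG47 difference was 0.56.

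Reads of NAPRT and of 2 genes on the opposite strand cannot be told apart without strand. Exons of AC067930.5 and AC067930.6 on the opposite strand cover 37.3% of the exonic bases of NAPRT, and the strand setting of the authors' counting is not given in the sources used here. AC067930.5 was counted at 0.0303 to 0.537 CPM and AC067930.6 at 0.129 to 1.45 CPM, with 51 counts in dTAG47 library 1 and 4 to 21 in the other 8. Summed with both, NAPRT differed by 0.6 on the log2 scale for dTAG47. The sum holds only reads already counted to a gene, so it cannot show reads left uncounted in the overlap.

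QPRT, which makes nicotinic acid mononucleotide from quinolinic acid, was at 19.4, 20.4 and 23.4 CPM in DMSO, 22.2, 24 and 15.3 with dTAG47 and 16.7, 15.9 and 20.4 with AGB1. The lowest value of all was dTAG47 library 3, and 2 of the 3 AGB1 libraries were below every DMSO library. The log2 difference was -0.26 ± 0.14 for AGB1, or 0.837-fold with an interval of 0.69 to 1.02 and an edgeR adjusted p of 0.676. For dTAG47 it was -0.037 ± 0.14, and without dTAG47 library 3 its sign changed to 0.13. QPRT shares 22% of its 75-base words with AC009086.2, which had 0 counts in every library.

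The levels per kilobase of exon spanned a wide range. In DMSO, APRT stood highest at 102 ± 7.13 CPM per kb (SD, n = 3), followed by HPRT1 at 74.3 ± 0.329, PNP at 29.3 ± 1.34, DCK at 15.2 ± 0.654, ADK at 12.8 ± 0.853, NAMPT at 12.1 ± 0.381, UPRT at 8.61 ± 0.436, QPRT at 5.79 ± 0.575 and NAPRT at 1.16 ± 0.201. Of the 8 pairs of neighbours in this order, the DMSO libraries overlapped only for ADK and NAMPT. APRT and HPRT1 were at the 98.2 and 97.3 percentiles of the tested genes per kb and NAPRT at the 33.4 percentile. QPRT stood 4.99-fold above NAPRT, and HPRT1 2.54-fold above PNP. The NAPRT level carries the limit of the opposite-strand overlap given above. Exons of other genes, on either strand, also cover 15.7% of the exonic bases of QPRT, 13% of ADK, 11.9% of PNP, 8.69% of NAMPT and 6.17% of DCK. HPRT1, APRT and UPRT have no such overlap. Whether reads in these overlaps move the order was not tested. Exonic length here is the union of all annotated exons, so a gene with long rarely used exons, such as NAMPT with 9049 bases, reads lower per kb.

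**Figure D3:**
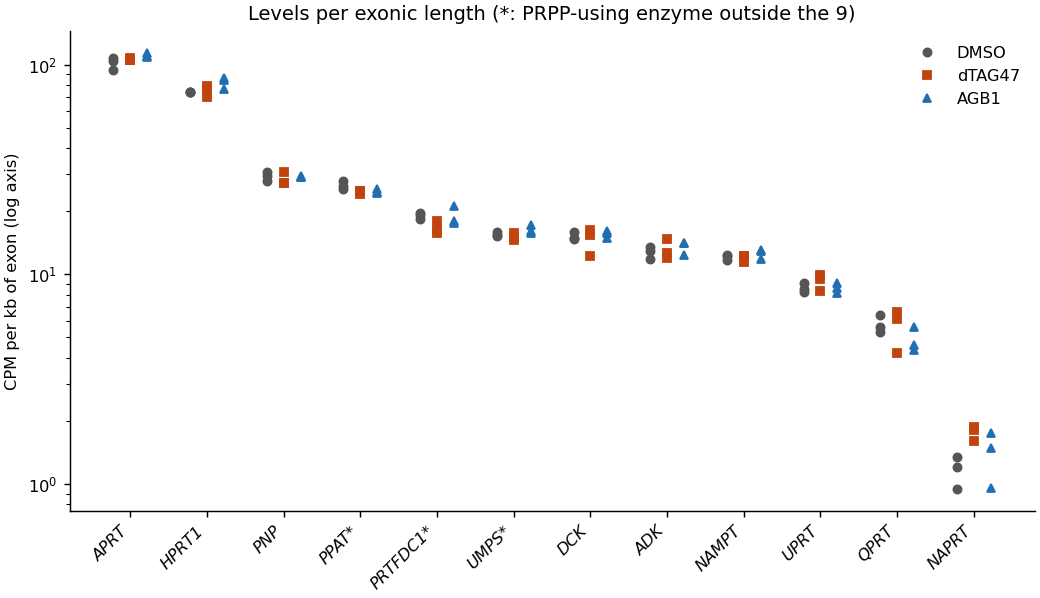
CPM per kb of exon (log y axis) of the 9 mRNAs and of PPAT, PRTFDC1 and UMPS (asterisks), ordered by the DMSO mean; each point is a library, coloured by treatment. APRT and HPRT1 lie above all others, and the order from APRT to NAPRT covers levels from 102 to 1.16 CPM per kb in DMSO.

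PRPP is also spent outside salvage by PPAT, which commits it to purine synthesis, and by UMPS, which joins it to orotate, while PRTFDC1 is a close relative of HPRT1 with little known activity. Per kb these stood between PNP and DCK or beside them in DMSO, with PPAT at 26.6 ± 1.11, PRTFDC1 at 19.1 ± 0.595 and UMPS at 15.5 ± 0.403 CPM per kb. None of the 3 passed the threshold. PRTFDC1 was at 45.6, 44.8 and 42.9 CPM in DMSO, 36.7, 37.8 and 41.8 with dTAG47 and 41.8, 49.4 and 41 with AGB1. Its dTAG47 libraries were all below DMSO, with a log2 difference of -0.2 ± 0.088 and an edgeR adjusted p of 0.633. Those of PPAT, at 132, 136 and 136 CPM, were also all below DMSO, at 144, 151 and 139 CPM. The dTAG47 and DMSO groups thus did not overlap for 2 of these 3 genes, where 11.6% of all tested genes did the same. PPAT differed by -0.1 and UMPS by -0.038 on the log2 scale with dTAG47, and by -0.09 and 0.076 with AGB1. Of 5 genes of the PRPP synthetase list 4 were tested and none passed, with medians of -0.0052 for dTAG47 and 0.028 for AGB1. PRPSAP2, at 63.7 to 74.3 CPM, differed by 0.13 ± 0.07 with AGB1 (edgeR adjusted p of 0.697). PRPS1 differed by 0.088 ± 0.061 with dTAG47 (edgeR adjusted p of 0.808). The untagged PRPS2 was at 115 to 120 CPM, beside 99.1 to 113 CPM for PRPS1. Its log2 difference was -0.037 with dTAG47 and -0.033 with AGB1.

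Of 21 other genes of NAD metabolism, 13 were tested and none passed the threshold, with a median log2 fold change of 0.039 for dTAG47 and 0.0097 for AGB1. The steps from tryptophan towards quinolinic acid, the QPRT substrate, were unevenly represented: IDO1 and IDO2, which open the tryptophan ring, had 0 counts in every library, TDO2, with the same role, had 6 counts over all 9, KMO 14 and KYNU 4, while AFMID was at 36.5 to 49.6 CPM and HAAO, which makes the quinolinic acid precursor, at 2 to 3.98 CPM. AFMID, the formamidase of that route, gave 36.5, 39.4 and 38.1 CPM in DMSO, 44, 40.2 and 44.7 with dTAG47 and 43, 45 and 49.6 with AGB1. Both treated groups were above DMSO, with log2 differences of 0.18 ± 0.084 and 0.27 ± 0.085 and edgeR adjusted p-values of 0.681 and 0.325. NADSYN1, the NAD synthetase that follows NAPRT and QPRT, differed by -0.13 ± 0.09 with AGB1 (edgeR adjusted p of 0.78). NNMT, which diverts nicotinamide by methylation, had 6 counts over all 9 libraries. NMRK1, which starts NAD synthesis from nicotinamide riboside without PRPP, was at 8.57 to 11.2 CPM. NMNAT1, the nuclear enzyme that completes NAD, was at 12.8 to 16.4 CPM.

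None of the 16 tested of 23 genes of purine breakdown and interconversion passed, with medians of 0.016 for dTAG47 and 0.065 for AGB1. XDH, which oxidises hypoxanthine away from HPRT1, had 0 counts in every library, and GDA, the guanine deaminase, had 47 counts over all 9. NT5C3A, a nucleotidase, differed by 0.21 ± 0.089 on the log2 scale with dTAG47 (edgeR adjusted p of 0.619) and ITPA, which clears inosine triphosphate, by 0.2 ± 0.09 (edgeR adjusted p of 0.631). MTAP, which supplies APRT with adenine, was at 83 to 94.4 CPM.

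Of 14 genes of nucleoside kinases and pyrimidine salvage 12 were tested and none passed, with medians of 0.058 and 0.06. TK2, the mitochondrial thymidine kinase, was at 13.2, 12.9 and 16.3 CPM in DMSO, 17.1, 16.3 and 16.3 with dTAG47 and 19.4, 18.1 and 17 with AGB1, a log2 difference of 0.36 ± 0.12 for AGB1 with an edgeR adjusted p of 0.366. UPP1, the uridine phosphorylase, was at 16.5, 18.4 and 17.2 CPM in DMSO, 21.9, 21.2 and 21.6 with dTAG47 and 17.2, 18 and 19.8 with AGB1. Its dTAG47 libraries were above all others, a log2 difference of 0.31 ± 0.11 from DMSO with an edgeR adjusted p of 0.465.

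The equilibrative nucleoside carriers made up most of the transporter mRNA counted: SLC29A1 was at 90.4 to 104 CPM and SLC29A2 at 35.5 to 42.4 CPM, whereas the concentrative carriers SLC28A1, SLC28A2 and SLC28A3 had 12, 6 and 3 counts over all 9 libraries, and SLC43A3, a purine base carrier, had 4. Of 8 transporter genes 4 were tested and none passed. SLC29A4 differed by 0.3 ± 0.12 with dTAG47 (edgeR adjusted p of 0.586) and SLC29A3 by -0.33 ± 0.19 with AGB1 (edgeR adjusted p of 0.706), both on the log2 scale.

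HPRT1 is itself in common use as a reference gene for RNA quantification, so the spread of the 9 was set beside 14 such genes. The SD of log2 CPM over all 9 libraries was 0.061 for NAMPT, 0.063 for PNP, 0.076 for APRT, 0.096 for UPRT, 0.096 for HPRT1, 0.11 for ADK, 0.13 for DCK, 0.24 for QPRT and 0.37 for NAPRT. The 14 reference genes ran from 0.049 for PGK1 to 0.15 for TBP, so that 7 of the 9 lay within that range and QPRT and NAPRT above it. The spread depends on level: among genes within 0.5 log2 units of its own mean level, 97.9% had a smaller SD than QPRT, 88.8% than NAPRT, 74.5% than HPRT1, 19.6% than NAMPT and 15.4% than UPRT. ACTB, another common reference, differed by 0.13 ± 0.041 on the log2 scale with dTAG47 (edgeR adjusted p of 0.384) and RPLP0 by 0.088 ± 0.038 with AGB1 (edgeR adjusted p of 0.552).

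**Figure D4:**
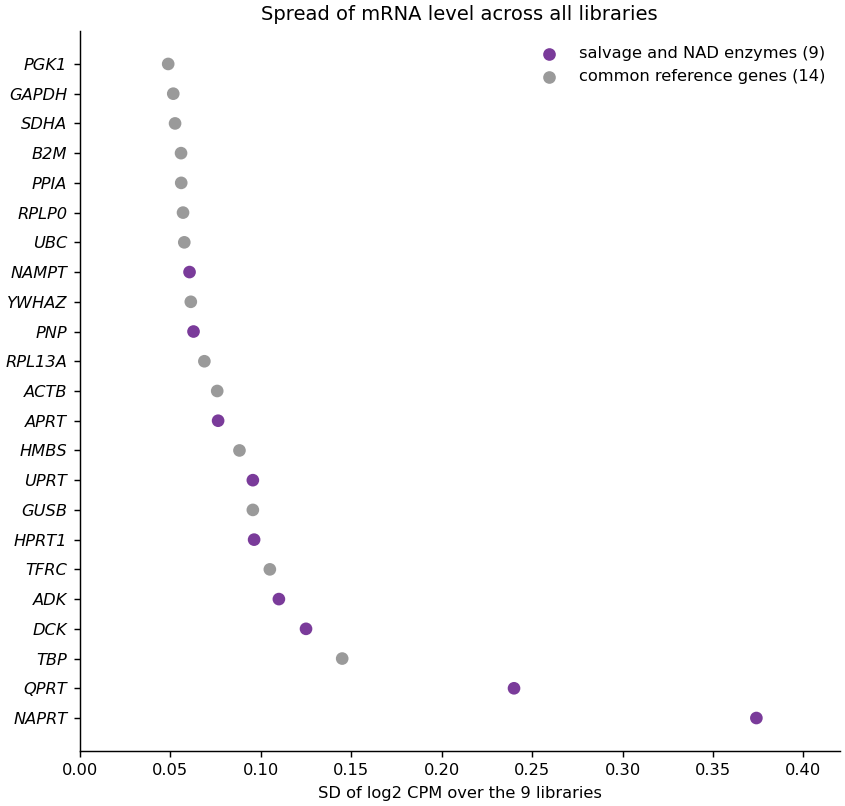
SD of log2 CPM over the 9 libraries (x axis) of the 9 salvage and NAD enzyme mRNAs (purple) and 14 common reference genes (grey), sorted. NAMPT at 0.061 and PNP at 0.063 lie among the least variable reference genes, and QPRT at 0.24 and NAPRT at 0.37 lie beyond TBP at 0.15.

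The 9 genes did not share 1 pattern over the libraries. Among the 36 pairs, Pearson's r of log2 CPM over the 9 libraries ran from -0.68 (NAMPT with QPRT) through a median of 0.177 to 0.742 (ADK with PNP), and 25 pairs were positive; each pair shares its libraries, their scaling and the GC trends given above. HPRT1 and APRT had an r of 0.576 and HPRT1 and DCK 0.706. Among 10838 protein-coding genes at 5 CPM or more, the gene whose levels followed each most closely was SOBP for HPRT1 (r of 0.927), PABPN1 for APRT (0.947), TCP11L1 for UPRT (0.923), TSNAX for NAMPT (0.935), SPARC for QPRT (0.922), IGSF1 for ADK (0.95), GTF2H2 for PNP (0.915) and PPP1CC for DCK (0.961). These are the highest of 10838 values over 9 libraries each and are given as a description. NAPRT, below 5 CPM on average, was not included.

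With 3 libraries a group the intervals set what could be seen. For the 7 genes other than NAPRT and QPRT, the 95% intervals of the difference from DMSO lay between 0.847-fold and 1.24-fold with dTAG47 and between 0.866-fold and 1.21-fold with AGB1. For QPRT they reached down to 0.69-fold with AGB1, and for NAPRT up to 2.07-fold with dTAG47.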

How the data were processed

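The authors deposited, for each of 9 poly(A)-selected libraries, raw whole-number counts by Ensembl gene. HISAT2, DESeq2 and the hg38 build appear in the submitters' processing notes, without versions; how reads were counted, and whether by strand, is not given in the sources used here. Gene positions match GENCODE release 29 for 58735 of 58735 genes. Groups and replicate numbers come from the sample titles. Counts were filtered with filterByExpr, scaled by TMM and fitted over all 9 libraries with edgeR 4.0.16 in R 4.3.3 (glmQLFTest, Benjamini-Hochberg, threshold 0.05); SEs are the absolute log2 fold change over the square root of F, and intervals use the fit's degrees of freedom. Library totals were 27964128 to 44803380; reads carry no molecular identifiers, so floors cover counting error only. The fit was tested on simulated counts. The 9 genes and all lists were chosen with earlier results of these data known. By rule the 9 are named with every value, and of each context list the members past the threshold or else up to 2 with the smallest p against DMSO; context genes named for their level alone, and those at 0, were picked after their values were seen. Alternatives were DESeq2 1.42.0, other scalings and filters, only the groups compared, a replicate block, removal of the GC trend (lowess, span 0.3), sums with pseudogenes or overlapping genes, and leaving out each library; the sum with overlapping genes was chosen after seeing the data.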

Additional observations from a re-analysis of the deposited data

How the results depend on the processing

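None of the 9 enzyme mRNAs passed the threshold in any of the 3 comparisons under any alternative run. The number called over all genes did move: from 11 for dTAG47 against DMSO to 47 with DESeq2, 43 with no filter, 4 with only the groups compared, 22 with the GC trend removed and 2 to 20 with a library left out (5, 3 and 20 without DMSO 1, 2 and 3, 2 without dTAG47 1, 6 without dTAG47 3); from 19 for AGB1 against DMSO to 75 with DESeq2, 67 with no filter, 47 with the GC trend removed, 48 with the replicate block added to that, and 6 to 55 with a library left out (10, 7 and 55 without DMSO 1, 2 and 3, 9 without AGB1 2, 6 without AGB1 3); and from 0 between the compounds to 13 with no filter, 1 without dTAG47 1 and 2 without AGB1 1. The cause was not tested. Same-numbered libraries did not deviate together (correlations of -0.156 to 0.0714), and the replicate block gave 10, 17 and 0 calls. Signs changed for differences near 0. NAMPT with dTAG47 went from -0.0076 to 0.054 with the GC trend removed and 0.054 with the replicate block added. UPRT with AGB1 went from -0.0005 to 0.0011 with DESeq2, 0.00055 with its size factors, 0.0053 with the GC trend removed and 0.00503 with the replicate block added. Leaving out a library gave, for dTAG47 against DMSO, -0.057 to 0.095 for ADK, -0.034 to 0.022 for NAMPT, -0.17 to 0.13 for QPRT, -0.14 to 0.056 for DCK and -0.021 to 0.0698 for HPRT1; for AGB1, -0.039 to 0.042 for UPRT and -0.034 to 0.029 for PNP; and between the compounds, -0.18 to 0.0204 for DCK and -0.14 to 0.013 for ADK. Depth limits NAPRT, with 96 to 259 counts a library, more than the other 8.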
